A study of Dugesia japonica with 157 samples.

Results

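The 100 transcripts described here were selected on their place in the trunk of the freshwater planarian Dugesia japonica and on a higher mean level in the sections around the body midline than in the pool of both flanks. They were chosen by measured values, in the following way. Each of the 3 deposited tables held 25566 rows, 1 per transcript identifier, and 13598 rows had at least 5 counts in at least 10% of the kept anterior-posterior (AP) sections. Levels were taken as log2(CPM + 1), where CPM is a transcript's count per 1000000 counts of the section. The lead of a zone was its mean level minus the mean of all other kept AP sections. In 272 rows the largest lead was that of sections 27 to 52 and was at least 1. Of these, 180 had a mean level in right-left (LR) sections 22 to 30 that was at least 0.5 above the mean of sections 6 to 15 and 37 to 48 together, and the 100 with the largest AP lead are the members. The other 92 of the 272 trunk rows fell below the midline threshold and are used for comparison. They were not limited to the largest AP leads and not matched to the members in level. The AP lead and the midline difference chose the members, so they are given as descriptions without a test. The dorsal-ventral (DV) series had no part in the choice.

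A planarian has a head in front, a trunk behind it in which a muscular pharynx lies in a central cavity, and a tail. The mouth opens on the ventral side near the rear of the pharynx, and the pharynx is put out through it for feeding. The gut has 1 main branch ahead of the pharynx and a pair of branches that run back on either side of it. A pair of ventral nerve cords runs the length of the body, and stem cells called neoblasts lie in the tissue between the organs, outside the pharynx. The files hold no gene names beside the identifiers, and no member is given a name, a function or a cell type.

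Whole animals of strain AF were cut into serial sections in 3 directions, polyadenylated RNA of each section was sequenced, and no treatment or mutation was labelled. The labels give 28 sections from dorsal to ventral, 78 from anterior to posterior and 51 from right to left. In the DV series the kept sections formed a dorsal part of 5 (sections 4, 5, 7, 8 and 9), a middle part of 8 (sections 10 to 17) and a ventral part of 8 (sections 19 to 26). In the AP series 13 sections each were kept in the front (27 to 39) and the rear (40 to 52) of the trunk zone, with 48 kept sections outside it. In the LR series 7 midline sections, 7 of the right flank and 12 of the left flank were kept, beside 5 and 6 between the midline and the right and left flank.

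No replicate animals were labelled in any direction. Sections stood in for replicates, so each p-value reflects how much sections of 1 series vary, not how much animals vary. Sections with a total under 20% of the median of their series were left out, which removed 7 DV, 4 AP and 14 LR sections. The kept totals ran from 623214 to 26807303 counts in the DV series, from 175749 to 12945391 in the AP series and from 236421 to 13052596 in the LR series. Library numbers follow section order, so place and library order cannot be told apart. In a section, fewer cells of a type and less RNA per cell cannot be told apart.

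The name of the group, trunk genes concentrated at the midline, held against each flank for only a minority of its members. Only 22 of the 100 lay at least 0.5 above the right flank and at least 0.5 above the inner part of the left flank, sections 37 to 41. As a group, the other 78 were spread broadly from section 6 to section 41 and dropped in sections 42 to 48. In 77 of the 78 the mean level of sections 37 to 41 was at least 1 above that of sections 42 to 48, with a median difference of 5.25. The exception, DjGI013531_001, named after its values were seen, had mean levels of 4.97 and 4.89 there. Not all of the 78 were even across the broad stretch, since 10 lay at least 1 lower in the right flank than at the midline and 2 at least 1 lower in left sections 37 to 41. The midline level exceeded that of sections 42 to 48 by at least 0.5 in 99 members, with a median difference of 4.32. Against the right flank, 41 members were at least 0.5 higher at the midline and 44 were lower there, with a median difference of 0.29. Against left sections 37 to 41, 26 members were at least 0.5 higher at the midline and 62 were lower, with a median of -0.71. With sections 42 to 48 left out of the left flank, an alternative added after the data were seen, 34 of the 100 still passed the midline threshold. The members are therefore called by their rule, and the 22 and the 78 are described apart. This split was made on the LR values and is a description. It did not use the sections between the midline and the flanks, so the 22 are not shown to be highest at the midline itself. Their highest 5-section running mean lay between LR sections 15 and 35, with a median of section 22.

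**Figure D1:**
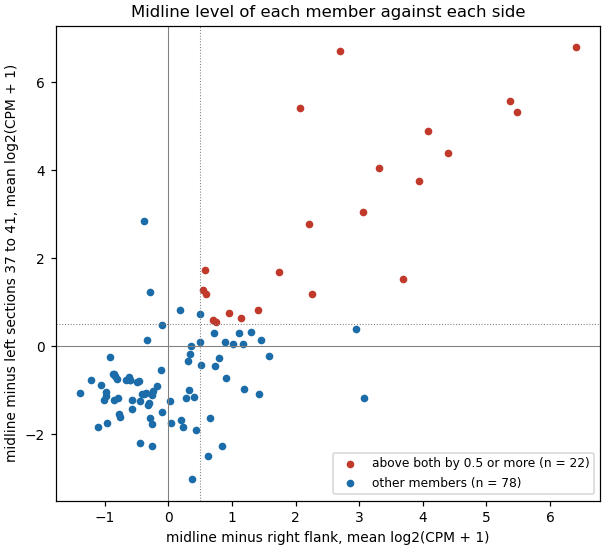
For each member, the mean log2(CPM + 1) at the midline (LR sections 22 to 30) minus that in the right flank is on the horizontal axis and minus that in left sections 37 to 41 on the vertical axis, both in log2 units. Solid lines mark 0 and dotted lines 0.5, and the 22 members past both dotted lines stand apart from the 78 others, most of which lie below 0 on the vertical axis.

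Along the AP axis the members formed a block with sharp edges, wider than the zone that chose them. Together they held 4.67 to 13.5% of a section's counts in sections 27 to 39 and 1.65 to 14.7% in sections 40 to 52, against 0.136 to 0.654% in sections 1 to 7 and 0.202 to 1.25% in sections 66 to 78. The share was 0.362% in section 19, 1.38% in section 20, 2.68% in section 21 and 7.11% in section 22. At the rear it was 7.47% in section 54, 1.62% in section 55 and 0.434% in section 57. No single member made up more than 2.29% of a section's counts in the trunk zone.

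The front edge of the block came before section 27 for most members. The mean level in sections 22 to 26 was at least 1 above that in sections 8 to 21 in 89 members, among them all of the 78 and 11 of the 22. Behind the zone, the mean level in sections 53 to 54 was at least 1 above that in sections 55 to 65 in 49 members, 46 of the 78 and 3 of the 22. The mean level in sections 48 to 50 was at least 1 above that in sections 51 to 52 in 64 members, 32 of the 49 and 32 of the other 51. Section 40 interrupted the block. It held the lowest share of the zone, 1.65%, and 85 members were lower there than the mean of sections 39 and 41, by a median of 2.24 across all members. Section 40 had a total of 825916 counts, section 39 one of 428702 and section 41 one of 626672.

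**Figure D2:**
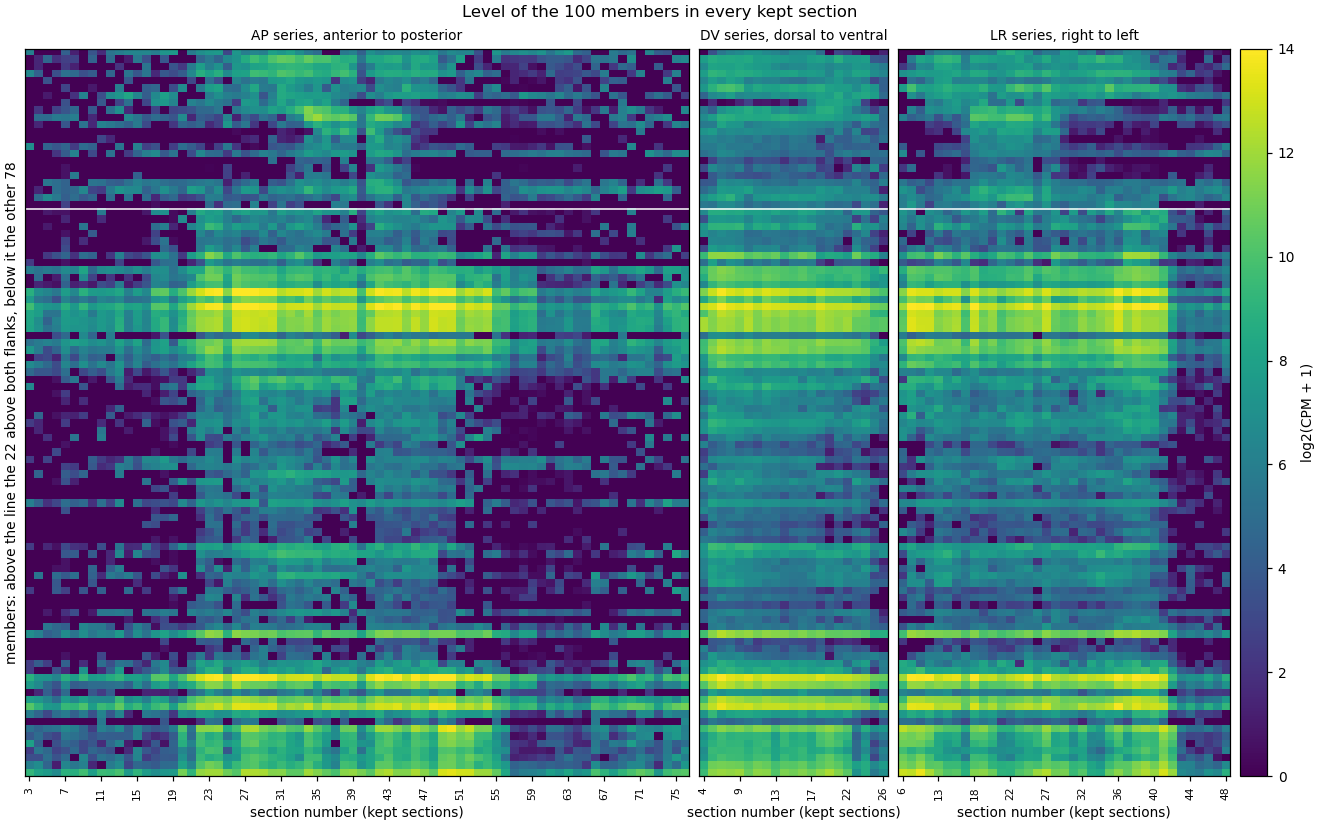
Each row is a member and each column a kept section of the AP, DV and LR series, with colour giving log2(CPM + 1). Above the white line are the 22 members above both flanks, and below it the other 78, most of which show a block from AP section 22 to about section 50 or 54 and, in 77 of 78, a lower level in LR sections 42 to 48 than in sections 37 to 41.

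DjGI015853_001 and DjGI016725_001 had the largest AP leads, 6.05 and 6.02. DjGI015853_001 had a lowest, median and highest level of 1.54, 510.2 and 1460 CPM in the 26 sections of the trunk zone, against 0, 2.24 and 404.2 CPM in the 48 sections outside it. DjGI016725_001 had 36.3, 311.1 and 1096 CPM in the zone, against 0, 1.09 and 360.5 CPM outside. The ranges of both overlapped, since the sections next to the zone held them too. Neither was concentrated at the midline. DjGI015853_001 had a median of 158.2 CPM at the midline, against 433.3 CPM in the right flank, 396.5 CPM in left sections 37 to 41 and 2.99 CPM in left sections 42 to 48.

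The last member by AP lead, DjGI010320_001, had a lead of 1.50 and also the lowest midline difference among members, 0.54. The first row left out by rank, DjGI000410_002, had a lead of 1.48 and a midline difference of 2.57. DjGI012830_001, with a lead of 1.86 that would have placed it in the list, had a midline difference of 0.49 and was left out for that. Over all members the AP lead ran from 1.50 to 6.05 with a median of 3.25, and the midline difference from 0.54 to 6.75 with a median of 1.44.

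Along the LR axis the 78 and the 22 followed different courses. The 78 together held 3.89 to 10.6% of counts at the midline, against 5.08 to 14.7% in the right flank, 8.84 to 13.9% in left sections 37 to 41 and 0.112 to 1.72% in left sections 42 to 48. The drop on the left was abrupt: all 100 members together held 9.43% of counts in section 41, 1.80% in section 42 and 0.169% in section 43. On the right the share was 5.16% in section 6, the outermost kept one, and 6.99 to 14.9% in the other kept sections of the flank. Sections 1 to 5, left out for totals of 47470 to 169591 counts, held 1.05 to 1.89%, so the share was lower at the right margin too. The 22 together held 0.170 to 0.730% at the midline, against 0.0859 to 0.290% in the right flank, 0.0634 to 0.196% in left sections 37 to 41 and 0.0288 to 0.0811% in left sections 42 to 48. Their ranges at the midline and in the right flank overlapped, because midline sections 26, 29 and 30 were low. Between the midline and the right flank the 22 held 0.151 to 0.561%, which overlapped most of the midline range. Between the midline and the left flank they held 0.155 to 0.357%.

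**Figure D3:**
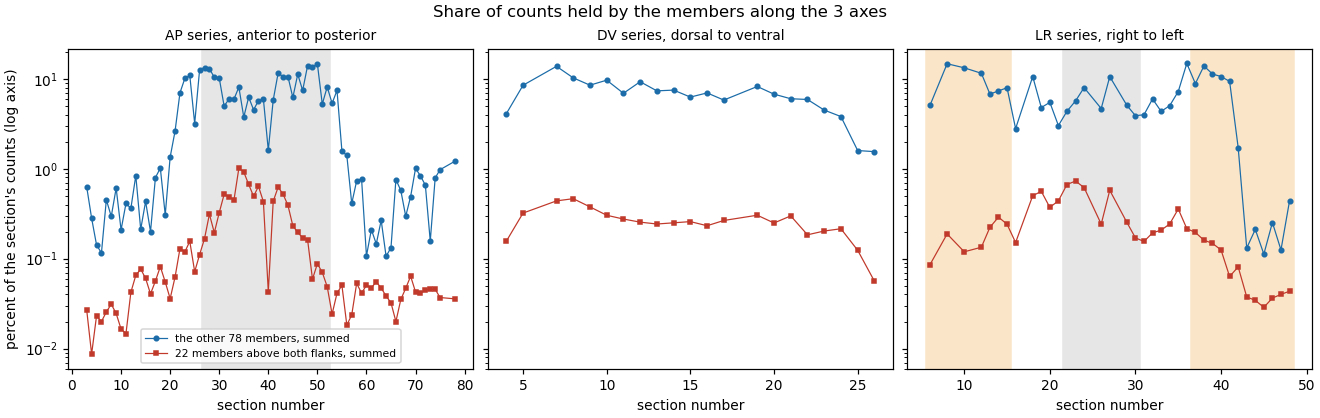
The summed share of the 22 members above both flanks (squares) and of the other 78 (circles), as percent of each kept section's counts on a log axis, is plotted against section number in the AP, DV and LR series. Grey marks the AP zone 27 to 52 and the LR midline, and orange both LR flanks. The 78 stay high from LR section 6 to section 41, while the 22 peak near AP section 34 and LR section 23.

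Within the 22, the 2 members with the largest midline difference were high in a narrow piece of the trunk. How many of the others were as narrow was not counted. DjGI016985_001, with the largest midline difference (6.75), had 27.0, 235.8 and 316.5 CPM as lowest, median and highest of the midline sections, against 0, 0 and 6.37 CPM in the right flank and 0, 0 and 2.24 CPM in the left flank. It was as high between midline and right flank, where sections 16 to 21 had 93.7 to 309.8 CPM, and near 0 on the other side, where sections 31 to 36 had 0 to 7.89 CPM. On the AP axis it had 92.0 CPM in section 35, 841.7 CPM in section 38, 817.0 CPM in section 41 and 196.4 CPM in section 42, but 0.600 CPM in section 34 and 10.3 CPM in section 44. Outside the trunk zone its highest level was 53.4 CPM, from 20 counts in 1 section of 66 to 78. Its high sections thus took up a small stretch of the trunk zone, and on the LR axis they lay between sections 16 and 30, to the right of the middle of the series as well as at the midline.

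DjGI017184_001, with the next largest midline difference (5.40), had 1.55, 60.0 and 158.4 CPM at the midline, against no count in the right flank and 0, 0 and 0.594 CPM in the left flank. The absence of counts in the 7 right-flank sections, which together held 6380532 counts, allows a level of up to 0.470 CPM by counting error (3 counts). On the AP axis DjGI017184_001 had 131.3 CPM in section 34 and 123.8 CPM in section 44, against 2.47 CPM in section 33 and 3.96 CPM in section 46. Outside the trunk zone its highest level was 15.3 CPM, in a section of 53 to 65.

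The DV series is the readout that the choice did not use. Members were higher toward the dorsal side. They held 4.25, 8.80, 14.2, 10.7 and 8.87% of counts in dorsal sections 4, 5, 7, 8 and 9, and 6.07 to 9.96% with a median of 7.39% in the middle part, against 1.61 to 8.51% with a median of 5.38% in the ventral part. The shares of the dorsal and ventral parts overlapped, and all kept dorsal sections except section 4 lay above every kept ventral section. Dorsal sections 1, 2, 3 and 6, left out for totals of 343475 to 430138 counts, held 6.43, 3.65, 3.26 and 2.36%. These shares lay within the range of the ventral part. Section 6 lay below both its neighbours, sections 5 and 7. Middle section 18, left out for a total of 295459 counts, held 2.61%, against 6.07% in section 17 and 8.51% in section 19. In DV sections left out, place and low total thus cannot be told apart, and nothing is read about the share nearest the dorsal surface. Ventral sections 27 and 28, also left out, held 1.69 and 2.10%. Toward the ventral end the share was 4.02% in section 24, 1.72% in section 25 and 1.61% in section 26. The median member level in a section, which weights all members alike, was 6.19 to 7.81 on the log2(CPM + 1) scale in the dorsal part, 6.50 to 7.13 in the middle part and 4.53 to 6.80 in the ventral part.

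All 100 members passed the filter of at least 5 counts in at least 10% of kept DV sections, as did 18291 rows in all. Of the 100 members, 71 had their highest mean level in the dorsal part, 27 in the middle part and 2 in the ventral part. Of all rows that passed the filter, 31.37% were highest in the dorsal part, 36.69% in the middle part and 31.94% in the ventral part. Of the 92 trunk rows below the midline threshold, 30 were highest in the dorsal part, 57 in the middle part and 5 in the ventral part. The mean level of the dorsal part minus that of the ventral part was above 0 in 97 members, with a median of 1.44. Its median was 1.29 among the 22 and 1.46 among the 78, a difference that was not tested.

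In the fit over all rows with edgeR's quasi-likelihood test and Benjamini-Hochberg adjustment, 11 of the 100 members were called higher in the dorsal than in the ventral part at an adjusted p under 0.05, against 0.492% of all rows tested. The test called 1 member lower in the dorsal part, against 0.306% of all rows. The log2 fold change of dorsal over ventral was above 0 in 96 members. Its median was 1.26 among members, 0.21 among the 92 trunk rows below the midline threshold, of which 3 were called higher, and 0.01 among all rows tested. At an unadjusted p under 0.05, 64 members were higher and 1 was lower in the dorsal part, against 7% of all rows higher and 5.6% lower. Of the 11 called higher, 10 were among the 78 and 1 among the 22, and their log2 fold changes ran from 1.50 to 4.20.

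The median log2 fold change of members was 1.05 to 1.55 over the 27 alternatives, while the number of calls moved widely. DESeq2 called 30 members higher in the dorsal part, and edgeR called 37 with only sections at 50% or more of the median total, and 6 with the section total as a covariate, where the members' median log2 fold change was 1.05. The sections' totals moved with the parts, with a median of 4323922 counts in the dorsal part and 1874284.5 in the ventral part. Left out in turn, dorsal section 4 gave 33 calls, section 5 gave 5, section 7 gave 2, and sections 8 and 9 gave 4 each. Without middle sections 11 to 13 or 15 to 17, or without ventral sections 20, 22, 24 or 25, each in turn, there were 6 or 7 calls. Without sections 25 and 26 together, where the members' share was lowest, 15 members were called and their median log2 fold change was 1.05. That alternative was added after the data were seen.

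**Figure D4:**
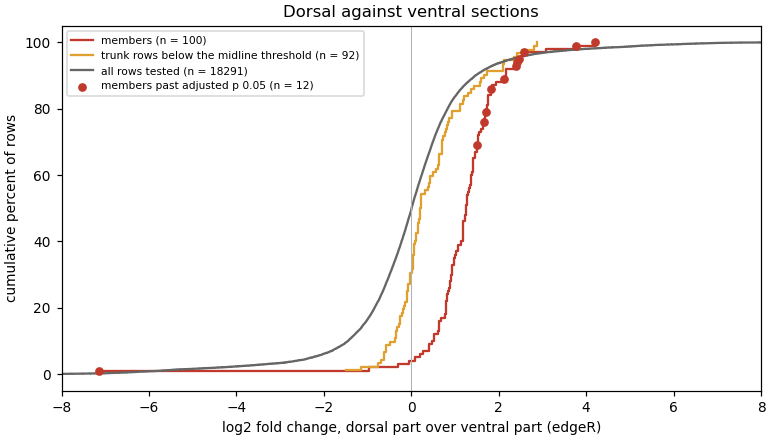
The cumulative percent of rows is plotted against the edgeR log2 fold change of the dorsal part over the ventral part for the 100 members, the 92 trunk rows below the midline threshold and all 18291 rows tested (the axis is cut at -8 and 8). Over most of its length the members' curve lies to the right of both others, with a median of 1.26 against 0.21 and 0.01, and circles mark the 12 members called.

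DjGI008375_001 had the largest dorsal excess by fitted fold change, and DjGI017679_001 by mean log2(CPM + 1), where its difference was 3.91. DjGI008375_001 had 33.7, 16.0, 52.5, 55.5 and 82.0 CPM in dorsal sections 4, 5, 7, 8 and 9, against a lowest, median and highest of 0, 2.29 and 6.74 CPM in the ventral part. Every dorsal section lay above every ventral one. The log2 fold change of dorsal over ventral was 4.20 ± 0.53 (SE), with an adjusted p of 5.57e-05 in edgeR's test, and it passed in all 27 alternatives (adjusted p 4.43e-13 to 0.000272). DjGI017679_001 had 33.7, 245.6, 47.0, 132.7 and 100.6 CPM in the same dorsal sections, against 0, 7.14 and 19.5 CPM in the ventral part, again with no overlap. Its log2 fold change was 3.77 ± 0.62 (SE), with an adjusted p of 0.0018 in edgeR's test, and it passed in all 27 alternatives (adjusted p 2.24e-07 to 0.00707).

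DjGI017863_001 was the member called in the opposite direction. It had 0, 2.46, 0, 0.231 and 1.89 CPM in the dorsal sections, against 0, 186.9 and 314.1 CPM as lowest, median and highest of the ventral part. Its level was confined to a band: 102.1 CPM in section 17, 246.4 to 314.1 CPM in sections 19 to 21, 143.7 CPM in section 23 and 5.55 CPM in section 24. The dorsal and ventral ranges overlapped, because sections 25 and 26 had 0.452 and 0 CPM. The log2 fold change of dorsal over ventral was -7.14 ± 1.72 (SE), with an adjusted p of 0.0428 in edgeR's test. This call was held in 18 of 27 alternatives. It was lost without any 1 of the 5 dorsal sections, without middle section 16 and without ventral section 20, 21 or 22, with a log2 fold change of -7.87 to -6.79 over all sections left out in turn and adjusted p from 0.000175 to 0.11 over the alternatives. Of the members, DjGI001471_001, singled out after its values were seen, was the other one with its highest mean level in the ventral part. Its mean log2(CPM + 1) was 6.50 in the dorsal, 7.10 in the middle and 7.62 in the ventral part, and the test did not call it.

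The middle part of the DV series was also compared with the mean of both end parts. Here 4 members were called higher in the middle, against 4.69% of all rows tested, and 0 were called lower, against 4.41% of all rows, by the same edgeR test. A share of 4 in 100 is near the background. At an unadjusted p under 0.05, 11 members were higher and 0 lower. Of all rows, 11.9% were higher and 10.2% lower at that threshold, so the 11 are near the background too. DESeq2 called 5 members higher and 0 lower, against 1036 and 1686 of the 18291 rows, of which 3240 got no adjusted p. The median log2 fold change of middle over ends was 0.44 among members, 0.50 among the 92 trunk rows below the midline threshold and 0.12 among all rows. Scaling by DESeq2's size factors in place of TMM moved the median of all rows to -0.04 and that of members to 0.33, so that members stood 0.32 above all rows with TMM and 0.37 above them with the size factors. Middle sections were the deepest, with a median total of 14600693.5 counts, and with the section total as a covariate 1 member was called and the medians were 0.08 among members, 0.12 among the 92 and -0.17 among all rows.

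The largest excess in the middle part was that of DjGI008453_001 and DjGI008375_001. DjGI008453_001 had a lowest, median and highest level of 55.3, 109.5 and 147.7 CPM in the middle part, against 0, 10.3, 45.6, 79.1 and 103.4 CPM in the 5 dorsal sections and 0, 1.48 and 30.4 CPM in the ventral part. The middle and ventral ranges did not overlap, while dorsal sections 8 and 9 reached into the middle range. The log2 fold change was 2.86 ± 0.67 (SE) with an adjusted p of 0.00716 in edgeR's test, and the call was lost with the section total as a covariate (log2 fold change 2.34, adjusted p 0.1; adjusted p 0.00014 to 0.1 over the 27 alternatives). DjGI008375_001 had 40.4, 63.2 and 89.4 CPM in the middle part, above the ventral range of 0 to 6.74 CPM and overlapping the dorsal range of 16.0 to 82.0 CPM. Its log2 fold change was 2.76 ± 0.40 (SE) with an adjusted p of 3.34e-05 in edgeR's test. The low values of DjGI008375_001 lay on the ventral side alone. Neither was confined to the trunk zone: DjGI008375_001 had 0, 40.2 and 173.3 CPM in AP sections 27 to 52, against 0, 14.7 and 122.9 CPM outside them, and DjGI008453_001 had 0, 82.5 and 259.0 CPM, against 0, 41.5 and 190.0 CPM. In sections 53 to 65 both medians were above that of the zone, at 64.1 CPM for DjGI008375_001 and 89.1 CPM for DjGI008453_001. In sections 8 to 26 the medians were 50.0 and 59.0 CPM.

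**Figure D5:**
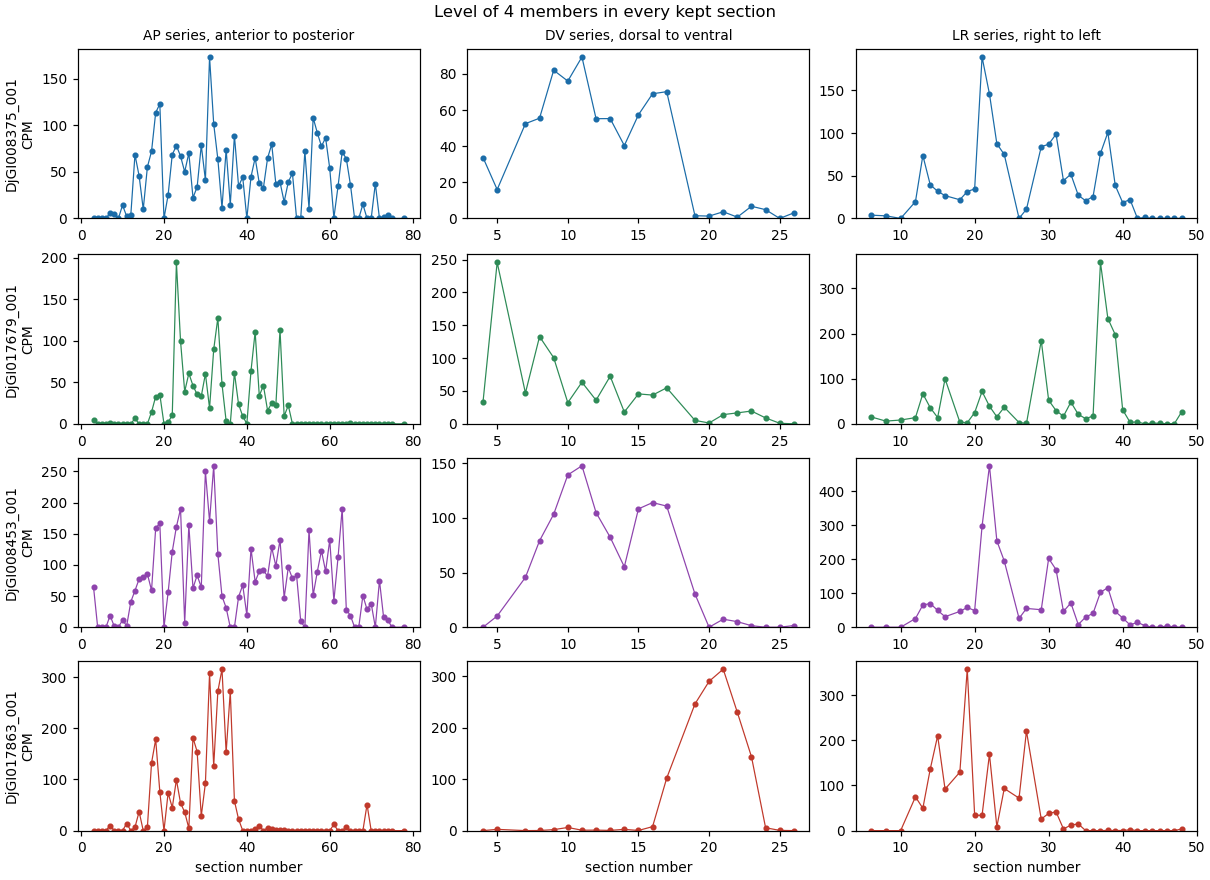
CPM of 4 members in every kept section of the AP, DV and LR series, with a linear axis that starts at 0 in each panel. DjGI008375_001, DjGI017679_001 and DjGI008453_001 are at 30.4 CPM or less from DV section 19 on, while DjGI017863_001 is at 102.1 CPM or more from DV section 17 to section 23 and at 9.10 CPM or less from AP section 39 to section 52.

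Across the 21 kept DV sections the members tended to move together. The median Pearson correlation of log2(CPM + 1) over all pairs of members was 0.550. It was 0.606 among the 78 and 0.310 among the 22, and 0.156 among the 92 trunk rows below the midline threshold. These pairs share their libraries and their depth, and the values are a description. The 92 were also scarcer: together they held a median of 0.267% of counts in the DV middle part, against 7.39% for the members. Their lower correlation thus cannot be assigned to the midline threshold. The 22 thus had the lower median correlation along this axis, and in them DjGI017863_001, DjGI008453_001 and the narrow DjGI016985_001 took different courses.

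Within the trunk zone, the front (sections 27 to 39) was compared with the rear (sections 40 to 52). The choice did not use this difference, but it used the mean over both, which favours rows high in both. Nothing is therefore read from the number of members called beside the share of all rows, or from the members' median. The edgeR test called 2 members higher in the front, against 0.0213% of all 14062 rows tested, and 0 lower, against 0% of all rows. Both are among the only 3 rows that the test called. At an unadjusted p under 0.05, 13 members were higher and 7 lower in the front. Of all rows, 2.08% were higher and 5.14% lower at that threshold. DESeq2 called 4 members higher and 0 lower, against 7 and 0 of all rows. With no filter on low counts edgeR called 6 members higher, and with the section total as a covariate 4. The median log2 fold change was 0.04 among members and -0.13 among all rows, and over the alternatives the members' median ran from -0.08 to 0.41 and so changed sign. The highest 5-section running mean lay within sections 27 to 39 in 59 members, within sections 40 to 52 in 32 and outside the zone in 9.

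DjGI017863_001, the ventral member, had 0, 152.8 and 315.4 CPM as lowest, median and highest of the front, against 0, 0.249 and 9.10 CPM in the rear. In the front all sections but section 39 lay above the rear. The log2 fold change was 6.12 ± 0.75 (SE) with an adjusted p of 1.59e-05 in edgeR's test. It was also found ahead of the zone, with 132.2 CPM in section 17 and 178.2 CPM in section 18. DjGI014927_001 had 20.9, 259.7 and 508.5 CPM in the front, against 0, 25.4 and 95.4 CPM in the rear, with some overlap. Its log2 fold change was 2.60 ± 0.45 (SE) with an adjusted p of 0.00987 in edgeR's test. Both calls held in all 6 alternatives.

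The right flank of the LR series was also set against the left flank. The choice used the mean of both flanks, to which the left flank gave 12 of 19 sections, so rows low on the left were favoured. Nothing is therefore read from the number of members called, from their direction or from the members' median. The edgeR test called 3 members higher in the right flank, against 0.0425% of all 16463 rows tested, and 0 lower, against 0.0182%. At an unadjusted p under 0.05, 19 members were higher and 0 lower in the right flank. Of all rows, 4.34% were higher and 10.9% lower at that threshold. DESeq2 called 6 members higher and 0 lower, against 71 and 115 of all rows. It gave no adjusted p to 8299 of the 16463 rows, among them 1 member. The median log2 fold change of right over left was 0.61 among members and -0.31 among all rows, and with the left flank cut to sections 37 to 41 it turned to -0.32 among members and -0.40 among all rows.

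The members with the largest difference between the sides are given as values without a test, for the same reason. DjGI017863_001 had 0, 49.4 and 210.1 CPM as lowest, median and highest of the right flank, against 0, 0.238 and 1.70 CPM in left sections 37 to 41 and 0, 0 and 3.89 CPM in left sections 42 to 48. In the right flank it was at 0 in sections 6, 8 and 10 and at 49.4 CPM or more in sections 12 to 15. DjGI018898_001 had 0, 103.5 and 192.3 CPM in the right flank, against 0.954, 1.70 and 5.20 CPM in left sections 37 to 41 and 0, 5.64 and 23.3 CPM in left sections 42 to 48. DjGI018898_001 was highest between the right flank and the midline, with 73.0 to 745.3 CPM in sections 16 to 21, and its highest AP level was 2610 CPM in section 34.

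Several members stand for near-identical rows. An identifier is made of a stem and a suffix, and the members carry 96 distinct stems, 4 of which (DjGI002801, DjGI000041, DjGI000518 and DjGI003701) occur on 2 members each. Over the kept DV sections the levels of the 2 members of such a pair correlated at 0.978 to 1.000. Another 13 rows share a stem with a member without being one, and 5 of them met the trunk criterion. Reads could have been split between such rows, and their separate levels are uncertain.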

How the data were processed

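Libraries were made from single tissue sections with the Direct-TRI and Lasy-Seq (version 1.1) protocols for multiplexed RNA-seq, per the labels. For each body axis the authors deposited a table of estimated counts. Salmon, BWA 0.7.17-r1188, fastp 0.21.0 and bcl2fastq 2.20.0 are named in the submitters' processing notes. What each tool did, which Salmon version ran and which transcripts it used were not given in the sources used here. Of 4013862 deposited estimated counts, 1028 (0.0256%) were not whole and were rounded. Of 157 columns, 7 in the AP table have names that, with punctuation ignored, fit another section too. They entered the choice of members as a group, sections 1 to 7, named in the rule, and 94 of 100 members were also chosen without them.

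The members, the lists and the rule for named identifiers were chosen with earlier results of these data known. CPM were computed from section totals. Rows with at least 5 counts in at least 10% of the sections of a fit were tested with edgeR 4.0.16 (R 4.3.3), TMM factors and the quasi-likelihood F-test, Benjamini-Hochberg adjusted over all rows of a test, and called at an adjusted p under 0.05. SE were read from the F statistic. The fits were also run on simulated counts with known changes, drawn independently for each section. These counts held no trends between neighbouring sections, so the p-values were not checked under such trends. Alternatives were DESeq2 1.42.0, its size factors in edgeR, no filter, the section total as covariate, sections at 50% of the median total, and DV sections left out in turn. Named identifiers are, per test and direction, the 2 called members with the largest fold change among those averaging 10 CPM or more in the region where they are higher, with 1 sign in odd and even sections, the 2 members with the largest AP lead, the 2 with the largest midline difference, and those next to each threshold. The limit for a count of 0 is 3 counts and covers counting error only. No annotation was at hand, so marker lists were not used and no sequence is shown.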

Additional observations from a re-analysis of the deposited data

Results flagged for a closer look

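Of 22 groups of 4 to 10 sections tested for a section far from the others, 2 were singled out, where chance gives about 1 in 20. The members' share of counts was 15.0% in LR section 36, against 4.14 to 7.57% in the other sections between midline and left flank. DjGI008453_001 had 30.4 CPM in ventral DV section 19, which borders the middle part, against 0 to 7.36 CPM in the other ventral sections.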

How the results depend on the processing

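The number of members called higher in the dorsal than in the ventral part was 11 and moved most: 30 with DESeq2, 6 with the section total as a covariate, 37 with sections at 50% or more of the median total, and 2 to 33 when each kept DV section was left out in turn. The member called lower there was called in 0 to 1 cases when sections were left out. In the middle part against the ends, 4 members were called higher, 1 with the covariate and 3 to 5 with sections left out, and 0 were called lower, but 2 at 50% of the median and 1 without sections 25 and 26. In the front against the rear of the trunk zone 2 members were called higher, against 4 with DESeq2, 6 without a filter and 4 with the covariate. In the right against the left flank 3 were called higher, against 6 with DESeq2 and 8 with the covariate. The choice of members used values of the trunk zone and of the flanks, so nothing is read from these AP and LR counts. The causes were not tested. No direction of a named call was reversed, but for the LR calls the choice itself favoured rows low on the left. Over all rows, the AP comparison called 3 higher and 0 lower, but 623 and 231 without a filter and 11 and 0 with the covariate. The LR comparison called 7 and 3, but 71 and 115 with DESeq2 and 117 and 14 with the covariate. The DV middle comparison called 857 and 807, but 153 and 39 with the covariate and 1036 and 1686 with DESeq2, and dorsal against ventral called 90 and 56, but 275 and 266 with DESeq2. DESeq2 gave no adjusted p to 8299 rows in the LR, 3240 in the DV middle and 1843 in the dorsal against ventral comparison. The choice of members shared 94, 88, 96, 80 and 34 members with the choice without AP sections 1 to 7, at 50% of the median, with TMM factors, with a pseudocount of 5 CPM and with left sections 37 to 41 alone, the last one added after seeing the data. No paired analysis was possible because sections share only numbers and no replicate pairs them. Without replicate animals and with 5 dorsal sections, precision is limited by the number of sections.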
